A study of Mus musculus with 16 samples.

Results

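Interferon-stimulated genes are the genes that cells switch on when an interferon binds its receptor. A list of 39 such genes was followed in mouse soleus muscle during a gradual fall in the oxygen level. The genes were listed by name, with earlier results of these data known: transcription factors, sensors of foreign nucleic acid, antiviral effectors, GTPases and antigen-processing subunits. On the arrays 37 of the 39 genes had a probe that could be named through a RefSeq transcript. Mx1 and Mx2, antiviral GTPases, had none, and Oas3, a synthetase of 2-5A, had a probe that was above background on 0 of 16 arrays. The remaining 36 genes were tested among 22126 features, of which 14088 were named genes.

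Type I interferons bind the receptor made of IFNAR1 and IFNAR2, and the kinases JAK1 and TYK2 then phosphorylate STAT2, which works with IRF9 in the complex ISGF3. ISGF3 binds the interferon-stimulated response element (ISRE) in the promoters of genes such as Isg15, Oas1a and Ifit1. Interferon-gamma acts through JAK1 and JAK2 on genes with a gamma-activated site (GAS), and through IRF1, and is a strong inducer of the guanylate-binding proteins and the immunity-related GTPases. In uninfected tissue many of these genes have a low tonic level, and resident and recruited leukocytes express a number of them as well as the muscle cells.

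The study lowered the oxygen available to male mice in steps to 10% during the first week and held it there in the second. Soleus, a postural hindlimb muscle rich in slow fibres, was profiled at day 0, before hypoxia, and at days 3, 7 and 14. There were 3 RNA samples at day 3, 3 at day 7 and 4 at day 14, each on 1 array, and 4 at day 0, spread over 6 arrays. The labels give sex, tissue, treatment and time but no strain or age, and leave unstated if every RNA sample is from a mouse of its own, so that p-values measure the spread between these RNA samples. Day 0 is the only baseline, and no mice were kept in room air for 3, 7 or 14 days among the samples used here.

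Each RNA sample was labelled with Cy3 and hybridised to a 1-colour Agilent array. A level below is the log2 of the background-subtracted intensity minus the 75th percentile of the array, adjusted for slide and averaged over the arrays of an RNA sample. The number of spots above background ran from 22502 to 32782. Slide 1 carried day 3, day 7 and day 0 RNA samples 1 and 2, and was the brighter slide, with a 75th percentile of 203 to 271 against 49.1 to 77.0 on slide 2. Slide 2 carried day 14 and all 4 day 0 RNA samples, so comparisons of day 14 with day 3 or day 7 rest on the day 0 RNA samples 1 and 2 that were run on both. The first principal component (30.4% of variance) put all arrays of slide 1 below 0 and all of slide 2 above. All 7 slow-fibre genes looked at, among them Myh7 and Tnni1, were well above background on 16 of 16 arrays. This cannot tell soleus from another muscle with slow fibres. Summed day 0 levels, in units of the array's 75th percentile, were 6398 to 6831 for these and 4336 to 4984 for 8 fast-fibre genes. At day 3 against day 0, 5 fast-fibre genes lay above 0 and 3 below, from -0.79 to 5.16, with 0 called higher and 1 lower. Whether the tissue taken differed between days was not tested. Of the 36 members, 27 were above background on all 16 arrays and 9 on fewer.

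Promoter sequence was available from RefSeq (build GRCm38.p6) for 28 of the 39 listed genes, in windows of 300 bases around the annotated start. The ISRE core, searched on both strands as GAAA, any 2 bases and GAAA, stood in 14 of these 28 genes, against 3.99% of all 27025 genes in the same table. The GAS core, searched as TTC, any 3 bases and GAA, which reads the same on both strands, stood in 7 of 28, against 9.55% of all genes. A GAS match overlaps an ISRE match in Bst2. Because the genes were listed for their known response to interferon, these shares describe the list and test nothing. The windows below end at the base before the annotated start and run 5′ to 3′ on the strand of the gene, with ISRE cores in capitals. They are shown for members whose levels differed in direction: Isg15 at chr4:156200819-156200938 (- strand), Oas1a at chr5:120907526-120907645 (- strand), Gbp3 at chr3:142559924-142560043 (+ strand), Igtp at chr11:58199436-58199555 (+ strand), Bst2 at chr8:71537473-71537612 (- strand), Irf7 at chr7:141266425-141266544 (- strand) and Ifi35 at chr11:101448292-101448411 (+ strand).
Isg15: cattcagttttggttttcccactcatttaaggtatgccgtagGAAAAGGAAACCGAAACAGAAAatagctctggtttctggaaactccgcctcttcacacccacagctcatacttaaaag
Oas1a: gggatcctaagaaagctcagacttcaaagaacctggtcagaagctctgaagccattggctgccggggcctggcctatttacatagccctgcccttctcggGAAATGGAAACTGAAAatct
Gbp3: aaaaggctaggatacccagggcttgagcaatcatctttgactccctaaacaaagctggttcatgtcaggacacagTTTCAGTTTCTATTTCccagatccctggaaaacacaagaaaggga
Igtp: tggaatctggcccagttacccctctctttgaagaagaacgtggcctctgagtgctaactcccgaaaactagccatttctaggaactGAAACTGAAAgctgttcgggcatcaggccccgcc
Bst2: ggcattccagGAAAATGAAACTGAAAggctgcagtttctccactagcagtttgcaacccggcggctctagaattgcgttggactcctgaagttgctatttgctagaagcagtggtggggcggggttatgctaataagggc
Irf7: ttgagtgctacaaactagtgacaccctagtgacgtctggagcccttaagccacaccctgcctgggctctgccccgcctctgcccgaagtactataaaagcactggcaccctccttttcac
Ifi35: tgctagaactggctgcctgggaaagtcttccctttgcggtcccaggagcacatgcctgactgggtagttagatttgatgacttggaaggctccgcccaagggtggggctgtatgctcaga
The first core began 78 bases before the start in Isg15, 20 in Oas1a, 45 in Gbp3, 34 in Igtp and 130 in Bst2. The windows of Irf7 and Ifi35 held 0 cores. Gbp3 and Igtp, which rose at day 7, and Bst2, which fell, each carried the core in this window.

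The list did not move as a block during the course. At day 3 the member median lay above day 0, at day 7 it lay below with some genes higher and others lower, and at day 14 nearly all members lay above day 0 by amounts that did not pass the test. The numbers called (limma, Benjamini-Hochberg adjusted p under 0.05 over all features) were small. At day 3 against day 0, 0 of 36 members rose and 1 fell, where 6.09% of all features were called, 2.27% higher and 3.82% lower. The median member difference there was 0.20 on the log2 scale, against 0.06 over all features. At day 7 against day 0, 5 members rose and 3 fell. These 8 of 36 (22.2%) lie close to the 23.8% of all features called in that comparison, 15.6% higher and 8.14% lower, so the count says nothing about interferon-stimulated genes as such. The median was -0.11 for members and 0.09 for all features, and with the array median as the scale 0.0046 and 0.22, so that its sign depended on the scaling. It also depended on day 7 RNA sample 2, without which the members had a median of 0.0091 and lay 0.08 below all features, against 0.20 below with that sample. The members lay 0.10 below after normexp background correction and 0.08 below with the deposited series values. At day 14 against day 0, 0 members were called by limma, against 0.402% of all features, although 14 had an unadjusted p under 0.05. The smallest adjusted p there was 0.0634, for Iigp1. The member median was 0.24 against 0.06 over all features, with 33 of 36 members above 0, beside 58.5% of all features.

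Between the later days the same 36 genes gave 0 called higher and 1 lower at day 7 against day 3 (0.678% of all features called, 0.447% higher and 0.230% lower). Their median was -0.22, against 0.05 over all features. At day 14 against day 7 limma called 0 members (2.30% of all features), with 13 at an unadjusted p under 0.05 and a median of 0.38 against -0.04 over all features. Day 14 against day 3 had 0 called members (0.741% of all features), 1 of 36 at an unadjusted p under 0.05, and a median of 0.15, against 0.0050 over all features. A second count asks in how many genes the RNA samples of 2 days did not overlap. Non-overlapping members numbered 13 higher and 2 lower at day 3 against day 0, where 17.5% of all features were higher and 13.2% lower. At day 7 against day 0 they numbered 9 higher and 8 lower, beside 26.1% and 15.7% of all features. For day 14 against day 0 the counts were 9 higher and 1 lower, beside 10.6% and 4.44%. Day 7 lay wholly below day 3 in 11 members and wholly above in 1, where 6.05% of all features were lower and 11.2% higher. Day 14 lay wholly above day 7 in 12 members and wholly below in 1, beside 14.0% higher and 18.5% lower. Day 14 lay wholly above day 3 in 4 members and below in 0, beside 13.3% and 9.90%.

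**Figure D1:**
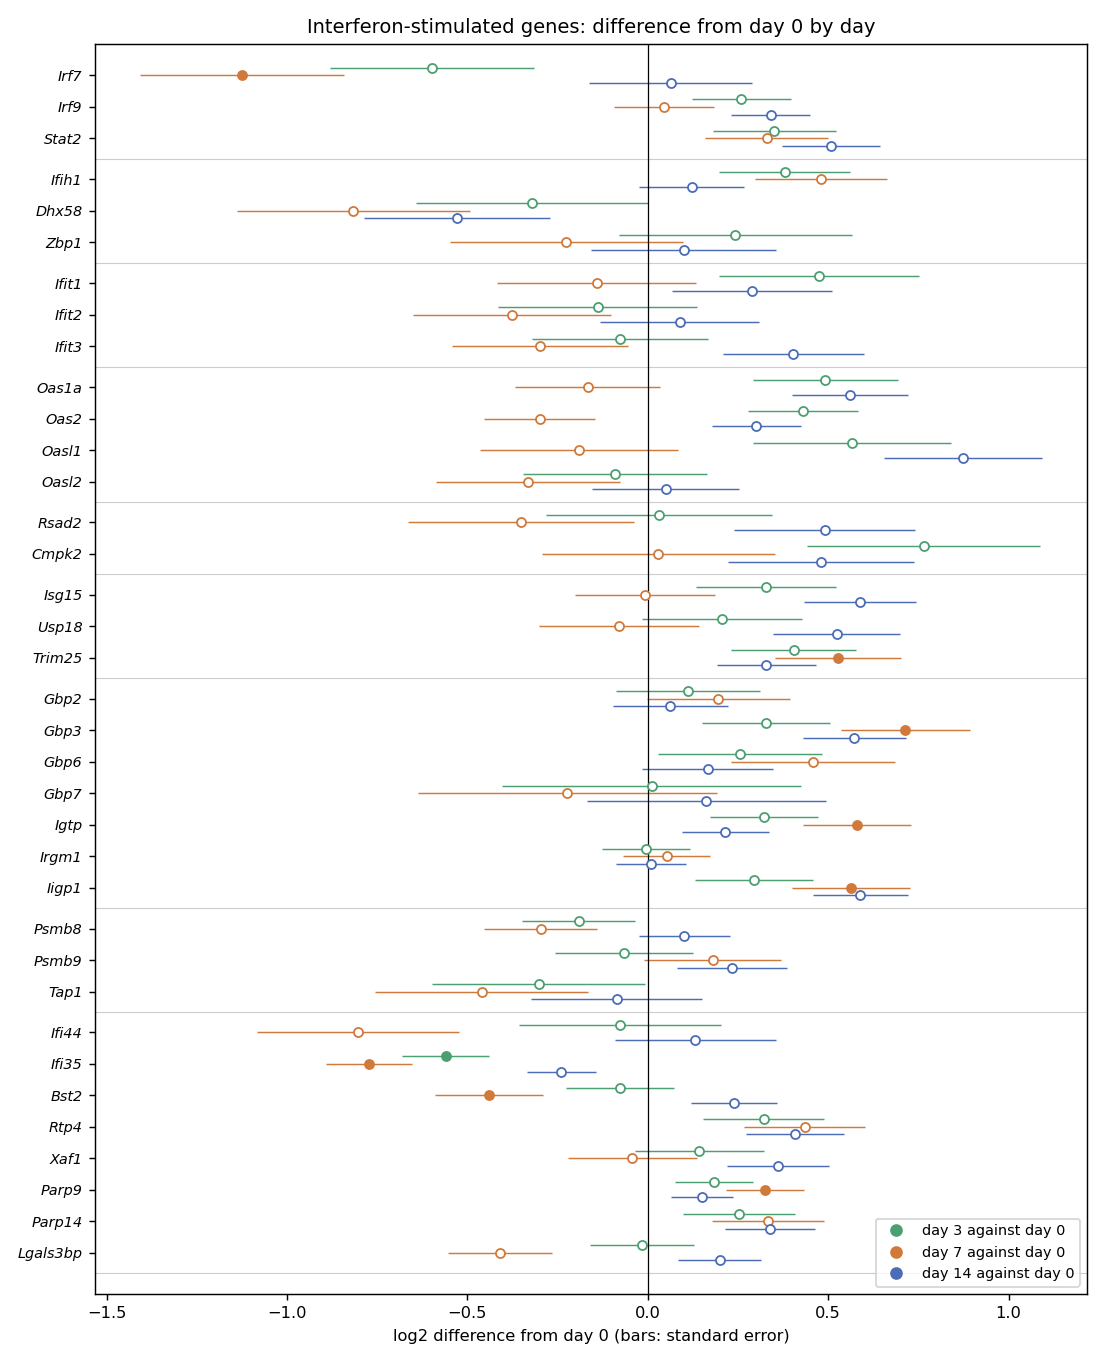
Log2 difference from day 0 (x axis) for the 36 measured interferon-stimulated genes (rows, grouped by role), at day 3 (green), day 7 (orange) and day 14 (blue). Bars are standard errors, filled symbols passed the test. At day 7 5 genes rose and 3 fell. At day 14 33 of 36 points lie above 0 with 0 filled, beside 58.5% of all features above 0.

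The day 7 count depended on 1 RNA sample. Without day 0 RNA sample 2, which is on both slides, 0 members were called at day 7 against day 0, and the share of all features called dropped to 0.466%. In the other leave-out fits 4 to 10 members were called, beside 11.8% to 26.2% of all features. The split of 5 higher and 3 lower also shifted with the scaling, the background correction and the arrays used. It was 7 and 2 with the array median in place of the 75th percentile (25% of members, 22.2% of all features). After quantile normalization it was 4 and 4 (22.2% and 21.1%), and after normexp background correction 7 and 5 (33.3% and 32.2%). Without the slide 1 arrays of day 0 it was 3 and 7 (27.8% and 17.5%). That last fit has no slide term and sets days 3 and 7 on slide 1 against day 0 on slide 2. Day and slide differences cannot be told apart in it, here or where it is named below. Markers of other cells moved beside the members. At day 7, 4 of 9 macrophage and monocyte markers fell and 0 rose, beside 8.14% and 15.6% of all features. C1qa, a complement subunit made by tissue macrophages, was at -1.62 ± 0.36 (SE, limma adjusted p = 0.0076). The summed macrophage level, in units of the 75th percentile of the array, was 13.8 to 15.5 at day 7 and 20.1 to 28.9 at day 0. The part of these markers in the member differences was not tested. In whole muscle, fewer cells of a type and less RNA per cell cannot be told apart.

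Among the transcription factors, Irf7, the factor that amplifies interferon production, fell at day 7. Its level was -2.32, -1.83, -1.71 and -1.33 at day 0, -2.59, -2.37 and -2.36 at day 3, -3.01, -3.09 and -2.80 at day 7, and -2.29, -1.86, -1.28 and -1.69 at day 14. All 3 day 7 samples lay below every sample of the other days, and day 3 lay below day 0. The difference at day 7 was -1.12 ± 0.28 from day 0 (SE, limma adjusted p = 0.0134), a ratio of 0.459. Irf7 is a dim probe, above background on 4 of 6 day 0 arrays, on all day 3 and day 7 arrays and on 1 of 4 day 14 arrays. Without the slide 1 arrays of day 0 the difference was -0.33 (limma adjusted p = 0.395), and the call was also lost without a slide term and when RNA sample 2 of day 7 or of day 0 was left out. At day 14 Irf7 was 1.19 ± 0.33 above day 7, which did not pass (limma adjusted p = 0.0700).

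Irf9 and Stat2, which encode subunits of ISGF3, had no called difference. Irf9 lay wholly above day 0 at days 3 and 14, by 0.26 and 0.34, but at day 7 its difference was 0.04. Without the slide 1 arrays of day 0, where day and slide cannot be told apart, it was -0.42 (limma adjusted p = 0.0377). Stat2 was 0.21, 0.55, 0.63 and 0.46 at day 0 and lay above that range at each later day, between 0.69 and 1.01 at day 3, 0.71 and 0.82 at day 7 and 0.73 and 1.31 at day 14. Its difference at day 14 was 0.51 ± 0.14 (SE, limma adjusted p = 0.0870). Stat2 thus stayed above the day 0 range at day 7, when Irf9 overlapped it.

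The cytosolic sensors did not share a direction. Ifih1, which encodes the RNA sensor MDA5, measured -0.03, -0.07 and -0.31 at day 7 and -0.65, -0.43, -0.67 and -0.76 at day 0, with no overlap. The difference of 0.48 ± 0.18 did not pass (SE, limma adjusted p = 0.0713). Dhx58, which encodes LGP2, a regulator of MDA5 and RIG-I, measured -2.66, -3.20 and -2.74 at day 7, wholly below -2.24 to -1.92 at day 0. The difference of -0.82 ± 0.32 did not pass in the main fit (SE, limma adjusted p = 0.0831). Dhx58 was called lower at day 7 after normexp, within slide 1, with a block for the replicate number and with averaged arrays. Fits not adjusted for slide, and those without day 14 RNA sample 2 or 3, also gave that call. It was absent in the remaining fits. At day 14 Dhx58 was above background on 0 of 4 arrays, so no fold is given there. Zbp1, a sensor of Z-form nucleic acid that can start necroptosis, was above background on 10 of 16 arrays and overlapped between all days.

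The 2-5A synthetase family, whose products activate RNase L against viral RNA, had 1 called difference, that of Oas2 at day 7 against day 3. Oas2 had 0.94, 0.60, 0.78 and 1.0 at day 0, 1.13, 1.31 and 1.31 at day 3, 0.59, 0.43 and 0.53 at day 7, and 1.13, 1.30, 1.18 and 0.87 at day 14. Every day 7 sample of Oas2 lay below every sample of days 3 and 14. Days 7 and 0 touched, with 0.59 and 0.60 as their nearest samples, and overlapped on slide 1 alone. It fell by 0.73 ± 0.14 at day 7 against day 3 (SE, limma adjusted p = 0.0369), a ratio of 0.603, within slide 1. This call was lost in 5 of 12 other settings and in 8 of 14 leave-out fits: those that dropped any 1 sample of days 3 or 7, RNA sample 3 of day 0 or RNA sample 1 of day 14. Within slide 1 alone it had a limma adjusted p of 0.195. There 0 of 22126 features were called at day 7 against day 3, so that loss is not particular to Oas2. The Oas2 difference stayed between -0.79 and -0.62 over these settings and leave-out fits.

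Oasl1, a synthetase-like protein that restrains IRF7 translation in mouse cells, had levels of -1.39, -0.98, -1.04 and -0.50 at day 0. Day 3 gave -0.42, -0.45 and -0.47, day 7 -1.40, -1.15 and -1.05, and day 14 0.39, -0.11, -0.59 and -0.23. The 3 day 3 samples and all day 14 samples except RNA sample 3 exceeded every day 0 sample, and day 7 fell within or near the day 0 range. Its largest difference, 1.07 ± 0.32 at day 14 against day 7, did not pass (SE, limma adjusted p = 0.0836). The difference of 0.87 ± 0.22 at day 14 against day 0 did not pass either (limma adjusted p = 0.0790).

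Oas1a, a catalytically active synthetase, was -0.38, -0.04 and -0.10 at day 7, against 0.15, 0.40 and 0.91 at day 3. The days did not overlap, and the difference of -0.66 ± 0.19 did not pass (SE, limma adjusted p = 0.123). A second, dimmer probe for Oas1a was above background on 8 of 16 arrays. With the mean of both probes Oas1a was called lower at day 7 against days 0 and 3, and higher at day 14 against day 7. Oasl2 overlapped between all days. All 4 measured members of the family lay below day 0 at day 7, by 0.17 to 0.33 and without a call, and 4 of 4 stayed below 0 under the 12 other settings. By the F-test over the 3 differences from day 0, 7 of 36 members were called (17.1% of all features), namely Ifi35, Oas2, Gbp3, Iigp1, Oasl1, Oas1a and Isg15.

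The IFIT proteins, which bind viral RNA, and the neighbouring genes Rsad2 and Cmpk2, which encode viperin and a mitochondrial nucleotide kinase, had 0 called differences in the 6 comparisons. The 3 Ifit genes had differences of -0.38 to -0.14 at day 7, negative under each scaling tried, and of 0.09 to 0.40 at day 14, each from day 0. Ifit3 had 1.06, 0.41, -0.01 and 0.19 at day 14, wholly above -0.19, -0.57 and -0.11 at day 7, with 1.06 coming from RNA sample 1. Cmpk2 gave the largest member difference at day 3: -0.74, -0.64 and -1.54 at day 3 against -1.70, -1.67, -2.24 and -1.37 at day 0. RNA sample 4 of day 3 overlapped day 0, and the difference of 0.76 ± 0.32 did not pass (SE, limma adjusted p = 0.159).

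Isg15, the ubiquitin-like protein conjugated during the interferon response, had levels of 1.28, 1.44, 1.5 and 1.61 at day 0, 1.65, 1.90 and 1.76 at day 3, 1.33, 1.42 and 1.56 at day 7, and 2.53, 2.0, 1.82 and 1.77 at day 14. Days 3 and 14 lay wholly above day 0, and day 7 lay within its range. The day 14 difference was 0.59 ± 0.16 (SE, limma adjusted p = 0.0868). Usp18, which removes ISG15 and dampens the type I receptor, was also wholly above day 0 at day 14, by 0.52 ± 0.18 (limma adjusted p = 0.138). Trim25, a ubiquitin ligase that can also attach ISG15, took another course. It measured 3.75, 3.44 and 3.29 at day 7, against 3.17, 2.74, 2.92 and 3.04 at day 0, and rose by 0.53 ± 0.17 (limma adjusted p = 0.0417). The Trim25 call held in 6 of 12 other settings and in 8 of 14 leave-out fits; it was lost without day 0 RNA sample 1, 2 or 3, day 3 RNA sample 1 or day 7 RNA sample 1 or 2, and within slide 1 (0.53, limma adjusted p = 0.106). Its difference was 0.31 without a slide term and 0.19 without the slide 1 arrays of day 0 (limma adjusted p = 0.191 and 0.397 in that order).

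The guanylate-binding and immunity-related GTPases, which attack the membranes of vacuoles that hold pathogens, made up 3 of the 5 members that rose at day 7. Of the 7 GTPases on the list, 3 rose, 0 fell and 6 had a positive difference, with a median of 0.46, where 15.6% of all features rose, 8.14% fell, 57.2% were above 0 and the median was 0.09. The number above 0 was 5 to 7 under the other settings. Gbp3 had 0.66, 0.32 and 0.91 at day 7 and -0.05, -0.11, -0.22 and 0.04 at day 0, a difference of 0.71 ± 0.18 (SE, limma adjusted p = 0.0130), or 1.64 times. Gbp3 also lay wholly above day 0 at day 3, at 0.09, 0.48 and 0.16, and at day 14, at 0.82, 0.40, 0.35 and 0.38, with differences of 0.33 and 0.57 that did not pass. Igtp, also called Irgm3, had 1.2, 1.09 and 1.46 at day 7 and 0.57, 0.58, 0.81 and 0.81 at day 0, a rise of 0.58 ± 0.15 (limma adjusted p = 0.0152). At day 14 Igtp was at 0.74 to 1.07, wholly below day 7. Within slide 1 alone the day 7 differences were 0.71 for Gbp3 and 0.64 for Igtp, as large as in the full fit, and neither passed there (limma adjusted p = 0.0596 and 0.0507 in that order). Both calls were also lost without day 0 RNA sample 2, and that of Gbp3 without day 0 RNA sample 1 and without the slide 1 arrays of day 0.

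Iigp1, an effector GTPase of the same group, had -0.22, -0.28 and -0.03 at day 7 and -0.79, -0.94, -0.66 and -0.49 at day 0, with no overlap. It rose by 0.56 ± 0.16 at day 7 (SE, limma adjusted p = 0.0253), and at day 14 it stood 0.59 ± 0.13 above day 0 without passing. A second Iigp1 probe, above background on 5 of 16 arrays, went another way: with the mean of both probes the day 7 difference was 0.18 (limma adjusted p = 0.635). The call was also lost with no filter on dim probes, with the replicate block, and without day 0 RNA sample 2 or day 7 RNA sample 1 or 4. Gbp6, one of the 3 brightest member probes with Trim25 and Lgals3bp, overlapped between days 7 and 0, and Irgm1, a regulator of the effector GTPases, differed by 0.05 ± 0.12. Gbp7, with 13 of 16 arrays above background, had the widest spread of the group and overlapped between all days.

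Of 8 further interferon-inducible GTPases that were measured but are not on the list, 4 rose at day 7 and 1 fell, beside 15.6% and 8.14% of all features. Gbp4 rose by 1.13 ± 0.27, Tgtp2 by 1.11 ± 0.28, Gbp9 by 0.70 ± 0.20 and Irgm2 by 0.61 ± 0.15, while Gbp10 fell by 0.73 ± 0.21 (SE, limma adjusted p = 0.0113, 0.0140, 0.0236, 0.0125 and 0.0248 in that order). Gbp5, Ifi47 and Tgtp1 differed by 0.65, 0.32 and 0.07 and did not pass. Several of these genes have close paralogs, such as Gbp6 with Gbp10 and Tgtp1 with Tgtp2, and whether a probe also binds the paralog was not tested.

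**Figure D2:**
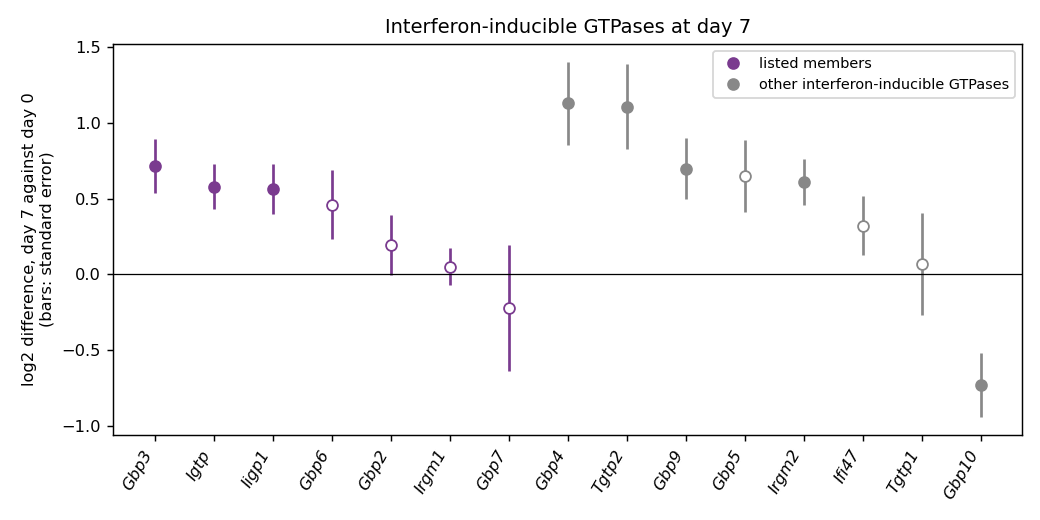
Log2 difference at day 7 against day 0 (y axis, bars are standard errors) for 7 listed GTPases (purple) and 8 others (grey), filled where the test was passed. Gbp3, Igtp and Iigp1 of the list and Gbp4, Tgtp2, Gbp9 and Irgm2 of the others lie above 0, and Gbp10 lies below at -0.73.

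The antigen-processing members had 0 called differences in the 6 comparisons. Psmb8 and Psmb9, catalytic subunits that replace their constitutive counterparts in the immunoproteasome, went apart at day 7. Psmb8 had 0.64, 0.38 and 0.62 at day 7, wholly below 0.71 to 0.99 at day 0, and Psmb9 had 0.72, 0.29 and 0.70 at day 7, overlapping 0.29 to 0.62 at day 0. The differences were -0.30 ± 0.16 and 0.18 ± 0.19 (SE). Tap1, a subunit of the peptide transporter, was the dimmest member probe, above background on 6 of 16 arrays, and on 0 of 4 at day 14. Among 11 further measured genes of the class I pathway and the proteasome, 3 rose and 1 fell at day 7, a share of 36.4% called beside 23.8% of all features. Psmb10, the third immunoproteasome subunit, rose by 0.42 ± 0.12 (limma adjusted p = 0.0238). H2-D1, a class I heavy chain, fell by 0.57 ± 0.11 (limma adjusted p = 0.00519).

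Of the remaining 8 effectors, Ifi35 had the smallest p of the list. It encodes a leucine zipper protein that pairs with NMI. Its level was 2.16, 2.02, 1.93 and 1.95 at day 0, 1.69, 1.46 and 1.26 at day 3, 1.28, 1.28 and 1.21 at day 7, and 1.72, 1.81, 1.83 and 1.80 at day 14. Each later day lay wholly below day 0, and day 7 was lowest on average. Ifi35 fell by 0.56 ± 0.12 at day 3 (SE, limma adjusted p = 0.0244) and by 0.77 ± 0.12 at day 7 (limma adjusted p = 0.00241), the second a ratio of 0.585. At day 14 it was 0.24 ± 0.10 below day 0 and did not pass. The day 7 call held in 12 of 12 other settings and in 13 of 14 leave-out fits, the exception being day 0 RNA sample 2 (limma adjusted p = 0.0615). Without the slide 1 arrays of day 0 the differences were smaller, at -0.38 for day 7 (limma adjusted p = 0.0292) and -0.17 for day 3. The day 7 call was the one member call that no change of scaling, filter or slide treatment removed. The day 3 call was less firm: it held in 7 of 12 other settings. It was lost without day 0 RNA sample 1 or 2 or day 3 RNA sample 2. Within slide 1 it did not pass either (limma adjusted p = 0.129). There 0 of 22126 features were called at day 3, so that loss is not particular to Ifi35.

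Bst2, which encodes tetherin and holds budding virions at the cell surface, had 1.24, 1.46 and 1.31 at day 7 and 1.67, 1.73, 1.90 and 1.87 at day 0. It fell by 0.44 ± 0.15 (SE, limma adjusted p = 0.0484). At day 14 it measured 2.23, 2.01, 1.82 and 2.01, wholly above day 7. Its call at day 7 held in 5 of 12 other settings and in 3 of 14 leave-out fits, those without day 0 RNA sample 1, day 14 RNA sample 1 or day 14 RNA sample 3. Ifi44, an effector of little known function, and Lgals3bp, a secreted glycoprotein, also lay wholly below day 0 at day 7. Their differences of -0.80 ± 0.28 and -0.41 ± 0.14 did not pass (limma adjusted p = 0.0527 and 0.0550 in that order). Ifi44 was called lower with the replicate block, with averaged arrays, in fits not adjusted for slide and without day 14 RNA sample 1 only. Lgals3bp was called lower after normexp or quantile normalization, with probes above background on all 16 arrays and with the mean of kept probes. The series values, the replicate block and averaged arrays also gave that call. It was absent with the array median, with no dim-probe filter, within slide 1 and in fits not adjusted for slide. Of leave-out fits, only those without day 3 RNA sample 2 or 4 or day 7 RNA sample 4 gave it. This call depended on the processing, as for Bst2.

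Parp9, an ADP-ribosyltransferase that works with the ubiquitin ligase DTX3L, went the other way, with 1.02, 0.85 and 0.77 at day 7 and 0.57, 0.47, 0.64 and 0.57 at day 0. It rose by 0.32 ± 0.11 (SE, limma adjusted p = 0.0431). Without the slide 1 arrays of day 0, where day and slide cannot be told apart, that difference was -0.0066 (limma adjusted p = 0.971). Before slide adjustment, day 0 RNA samples 1 and 2 read 0.44 and 0.30 on slide 1 and 0.70 and 0.64 on slide 2. Within slide 1 the day 7 difference was 0.35 (limma adjusted p = 0.120). The call held in 6 of 14 leave-out fits: those without day 0 RNA sample 3, day 3 RNA sample 2 or 4, day 7 RNA sample 4 or day 14 RNA sample 1 or 3. Parp14 and Rtp4 also lay wholly above day 0 at day 7, by 0.33 ± 0.16 and 0.43 ± 0.17, without passing. Rtp4 was called higher there after normexp, with the array median, with probes above background on all 16 arrays and with averaged arrays only. Xaf1, a pro-apoptotic effector, overlapped day 0 at day 7 and lay wholly above it at day 14, by 0.36 ± 0.14 (limma adjusted p = 0.184).

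**Figure D3:**
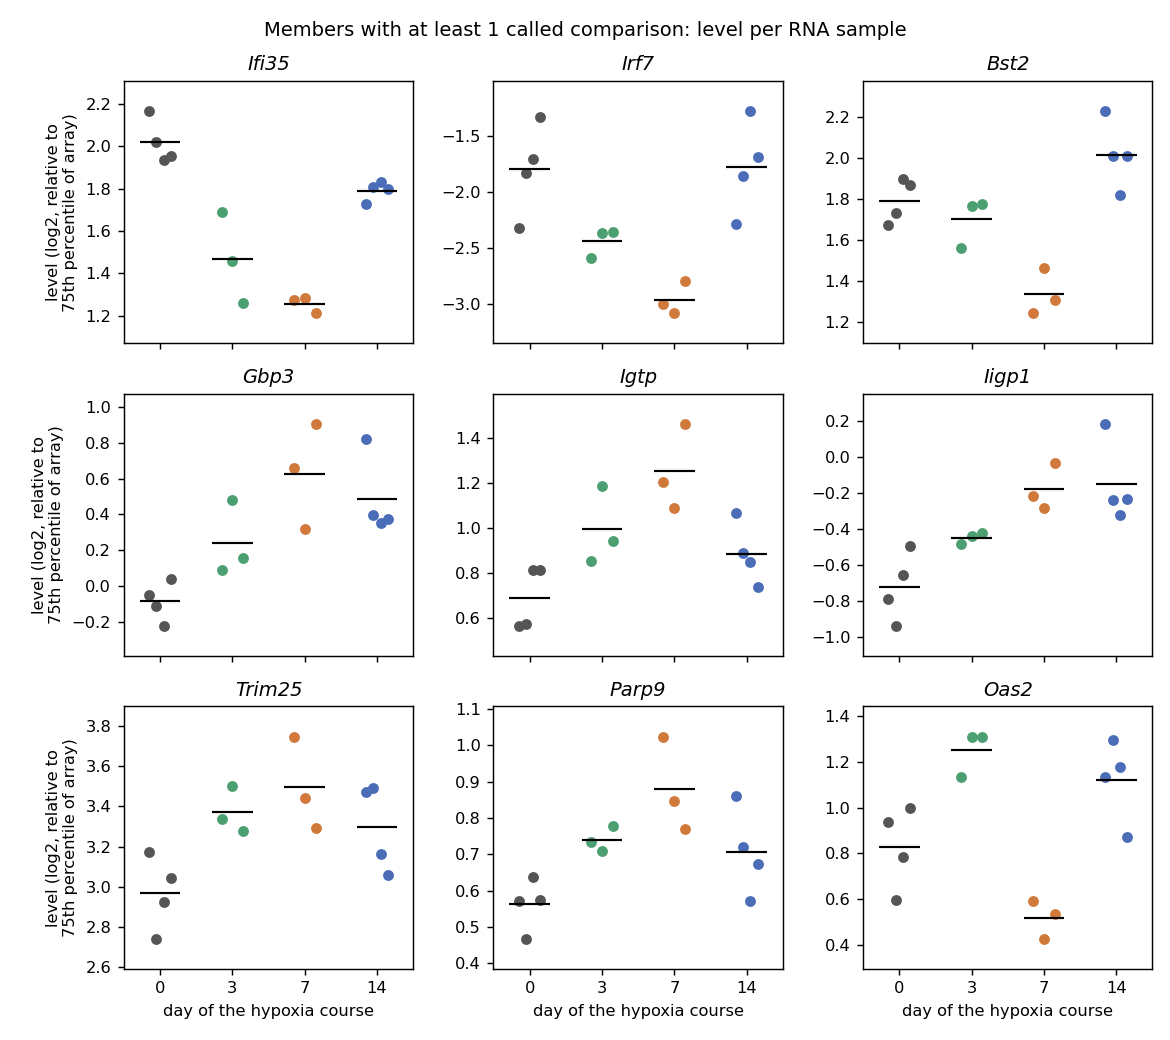
Level per RNA sample (y axis, log2 relative to the 75th percentile of the array, slide-adjusted) at days 0, 3, 7 and 14 (x axis) for the 9 members with at least 1 called difference; points are RNA samples and lines are means. Ifi35, Irf7 and Bst2 are lowest at day 7, Gbp3, Igtp, Trim25 and Parp9 are highest on average at day 7, and Oas2 is low at day 7 beside days 3 and 14.

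The members were also summarised per RNA sample, as the median deviation of each gene from its own mean over the 14 RNA samples. For all 36 members this median was highest in day 14 RNA sample 1, at 0.44, and lowest in day 7 RNA sample 2, at -0.37. In day 14 RNA sample 1, 34 of 36 members lay above their own mean and 16 had their highest level, against 1 to 4 highest in each of the other 3 day 14 samples. Without that sample the member median at day 14 was 0.18 against day 0, 0.28 against day 7 and 0.03 against day 3, beside 0.24, 0.38 and 0.15 with it. For the 11 Oas, Oasl, Ifit, Rsad2, Cmpk2, Isg15 and Usp18 genes the median deviation was -0.51 to -0.13 at day 7 and -0.24 to 0.07 at day 0. At day 3 it was 0.04 to 0.22 and at day 14 0.08 to 0.66. For the 7 GTPases it was 0.02 to 0.35 at day 7 and -0.36 to 0.08 at day 0. These groups were formed with results known, and the values are a description.

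**Figure D4:**
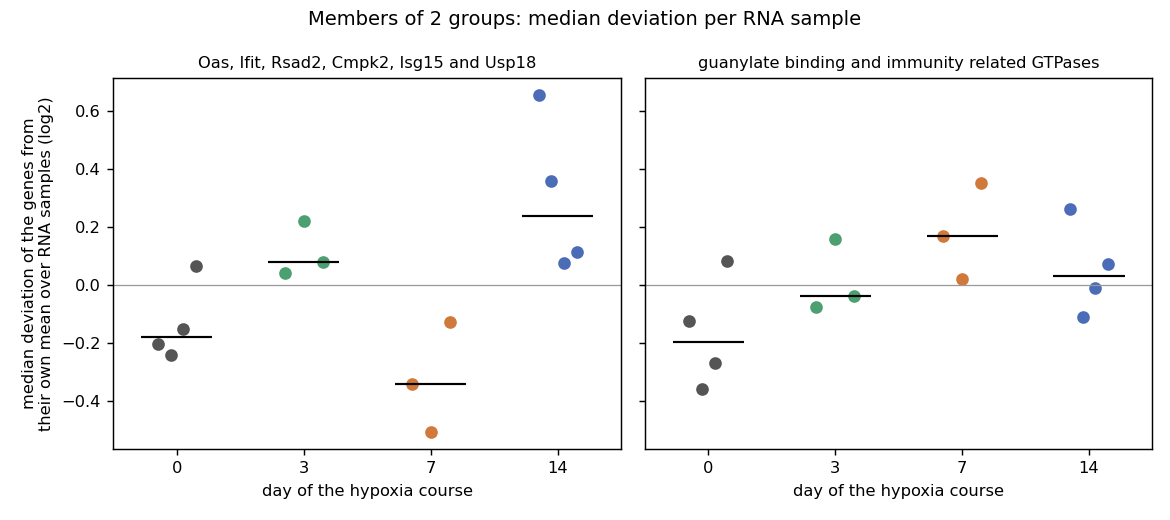
Median deviation (y axis, log2) of 11 Oas, Oasl, Ifit, Rsad2, Cmpk2, Isg15 and Usp18 genes (left) and of 7 GTPases (right) from their own means, per RNA sample (points), by day (x axis); lines are medians of the day. The 3 day 7 samples lie between -0.51 and -0.13 on the left and between 0.02 and 0.35 on the right.

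Across the 14 RNA samples, Pearson's r between GTPases had a median of 0.53 over 21 pairs, from 0.06 to 0.89. Within the other 11 genes the median was 0.59 over 55 pairs, from 0.18 to 0.93. Between the 2 groups it was 0.20 over 77 pairs, from -0.34 to 0.70. The points of these correlations share arrays, days and scaling, so no test is given.

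Upstream of the members, probes for 8 of 19 interferon genes were tested and 0 were called in the 6 comparisons. Their differences ran from -0.98 to 0.76 at day 14 against day 0. The 7 interferon-alpha genes among them were above background on 5 to 10 of 16 arrays. Ifnb1 and Ifng, which encode interferon-beta and interferon-gamma, were each above background on 1 array and were not tested. Of 5 receptor genes measured, all above background on 16 of 16 arrays, 1 rose and 0 fell at day 7. This share of 20% called lies near the 23.8% of all features. The gene was Ifnar1, a chain of the type I receptor, which rose by 0.65 ± 0.15 (SE, limma adjusted p = 0.00932). Of 15 JAK-STAT genes and inhibitors, 4 rose and 1 fell at day 7, a share of 33.3% called beside 23.8% of all features. Jak2, a kinase of the interferon-gamma receptor, rose by 0.57 ± 0.13 (limma adjusted p = 0.00736) and Irf1, its secondary transcription factor, by 0.68 ± 0.19 (limma adjusted p = 0.0193). Ptpn1, a phosphatase that acts on JAK2 and TYK2, fell by 0.65 ± 0.14 (limma adjusted p = 0.00666).

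Along the sensor pathways to interferon, 2 of 19 measured genes rose and 2 fell at day 7, a share of 21.1% called beside 23.8% of all features. Ticam1, the adaptor of TLR3, fell by 0.93 ± 0.16 (SE, limma adjusted p = 0.00352), and Irf5, a factor of inflammatory cytokine genes, by 1.24 ± 0.22 (limma adjusted p = 0.00364). Samhd1, a nucleotide hydrolase that blocks retroviruses, rose by 0.59 ± 0.14 (limma adjusted p = 0.00966). At day 14 Ticam1 was 0.98 ± 0.19 above day 7 (limma adjusted p = 0.0231).

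A wider list of 45 measured interferon-stimulated genes outside the members had 8 higher and 5 lower at day 7 against day 0 (28.9%, against 23.8% of all features). Beyond the GTPases already given, Tdrd7, an antiviral Tudor protein, rose by 0.74 ± 0.14 (SE, limma adjusted p = 0.00434). Nlrc5, the transactivator of class I genes, rose by 0.93 ± 0.23 (limma adjusted p = 0.0124). Ifitm3, a membrane protein that blocks viral entry, fell by 1.16 ± 0.22 (limma adjusted p = 0.00437), and Lgals9, a galectin, by 1.07 ± 0.23 (limma adjusted p = 0.00731). At day 14, 2 of the 45 genes rose and 0 fell against day 0 (4.44%, against 0.402%). They were Ube2l6, the conjugating enzyme for ISG15, at 0.71 ± 0.14, and Isg20, an exonuclease, at 0.77 ± 0.15 (both limma adjusted p = 0.0446). Ube2l6 also stood 1.14 ± 0.20 above day 7 (limma adjusted p = 0.0194). At day 3, Ifi27l2a rose by 1.12 ± 0.31 (limma adjusted p = 0.0493) and Ifi204, a DNA-binding protein of the p200 family, by 0.92 ± 0.25 (limma adjusted p = 0.046).

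Markers of cells that could carry these transcripts were measured beside them. For macrophages and monocytes the summed level was 20.1 to 28.9 at day 0, 18.8 to 49.6 at day 3, 13.8 to 15.5 at day 7 and 19.4 to 20.6 at day 14. For conventional dendritic cells and class II genes, 7 of 7 measured genes had a negative difference at day 7 and 0 were called. Their sums were 23.8 to 28.3 at day 7 and 24.7 to 50.5 at day 0. Of 4 plasmacytoid dendritic cell markers, 1 rose and 0 fell at day 7, with 2 above 0 and 2 below. The plasmacytoid sum was 291 to 388 at day 7 and 244 to 258 at day 0. Of 9 endothelial genes 0 rose and 2 fell at day 7, and of 7 fibroblast genes 1 rose and 2 fell. Among all features 15.6% rose and 8.14% fell there. The T and natural killer cell sum was 10.7 to 11.1 at day 7 and 9.86 to 11 at day 0, with Cd3d and Cd3g not above background on any array. S100a8 and S100a9, neutrophil granule proteins, fell by 3.04 ± 0.81 and 3.47 ± 0.89 at day 7 (SE, limma adjusted p = 0.0176 and 0.0145 in that order). Of the other 2 neutrophil markers tested, Csf3r, a growth factor receptor, rose by 0.36 ± 0.11 (limma adjusted p = 0.0288) and Retnlg was not called. The neutrophil sum was 173 to 211 at day 7 and 141 to 166 at day 0. Csf3r was the 1 marker of the 4 with a positive difference, and 3 were negative. The higher sum thus followed Csf3r and does not describe the neutrophil markers as a group. At day 14, 3 of 3 erythroid genes rose, beside 0.294% of all features, Hba-a1 by 1.74 ± 0.24 (limma adjusted p = 0.0105). The erythroid sum was 601 to 1208.5 at day 14 and 200.15 to 292 at day 0. The part of these markers in the member levels was not tested.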

How the data were processed

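RNA of 14 soleus samples was read on 16 arrays. The deposited scanner files hold a linear intensity per spot from Agilent Feature Extraction 11.0.1.1, per the file headers, background-subtracted, with no scaling of arrays to each other. How the intensity values of the deposited series table were made is not given in the sources used here.

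The deposited intensity was divided by the array's 75th percentile over spots that are not controls, then put on the log2 scale. Spots marked as outliers were left out and spots of a probe averaged. Probes were named through RefSeq transcripts (27656 of 55681), kept if well above background on at least 3 of 16 arrays (29459), and the brightest kept probe stood for its gene. Probe coordinates are not given, since the design uses an older assembly.

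Days were compared with limma 3.58.1 (R 4.3.3, statmod 1.5.0), with fixed terms for day and for slide, and a random block for the RNA sample (correlation 0.448, 11 residual and 2.45 prior degrees of freedom). P-values were 2-sided and Benjamini-Hochberg adjusted over 22126 features. Differences are later minus earlier day. The fit was checked on simulated data. Array number limits the precision. Matplotlib 3.10.9, pandas 2.3.3 and NumPy 2.4.6 ran under Python 3.11.15.

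The members and lists were chosen with earlier results of these data known. Named members were those called, the 6 with the smallest F-test p, the 3 brightest and 3 dimmest, and the 2 largest rises and falls per comparison; other lists gave up to 2 called genes per direction, or the 1 with the smallest p. Further genes, such as Irf9, Stat2, Ifit3 and the other GTPases, were named after their values were seen. Alternatives covered background correction, scaling, the filter, slide treatment, probe choice, the series table, the replicate number and each RNA sample left out. The normexp alternative used median spot and background intensities, where mean spot intensities had been planned. Replicate numbers did not pair the samples: same-numbered deviations correlated at -0.15 to 0.17.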

Additional observations from a re-analysis of the deposited data

Results flagged for a closer look

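In the day 14 group, RNA sample 1 stood apart for Gbp3, with a level of 0.823 on the log2 scale, while the other 3 samples lay between 0.354 and 0.397. It was the 1 outlier among 72 groups of 4 samples examined over the 36 members, where chance flags about 5% of groups. The same RNA sample had the highest level of 16 of the 36 members. The cause was not tested.

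The course of Oas2 between days 3 and 7 differed by a test of the difference itself, at -0.73 for day 7 against day 3 (limma adjusted p = 0.0369). At day 3 all RNA samples of Oas2 lay above day 0; at day 7 they lay just below it after slide adjustment and overlapped it on slide 1 alone.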

How the results depend on the processing

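Counts of called members changed with the processing as follows. Without a slide term, 13 members were called at day 14 against day 0, 11 at day 14 against day 7 and 2 at day 14 against day 3 (10% of all features). The F-test called 16 (23.8% of all features). At day 3 against day 0 and at day 7 against day 3, 0 were called (1.18% and 0.28%). With the arrays of an RNA sample averaged, 2 were called at day 3 (15.2% of all features) and 13 at day 7, each against day 0. There were 12 at day 14 against day 7 and 12 by the F-test (32.9%). Without the slide 1 arrays of day 0 the counts were 11 at day 14 against day 7 and 4 at day 14 against day 3 (19.2% of all features). The F-test gave 11 (23.9%). After normexp the counts were 4 at day 3 against day 0 (15.8% of all features) and 7 at day 14 against day 7. There was 1 at day 14 against day 3 (5.33%), and 12 by the F-test (28.4%). With probes above background on all 16 arrays, which tests fewer genes, the counts were 5 at day 14 against day 0 and 6 at day 14 against day 7. The F-test gave 13 there (37.3% of all features). The median of the array gave 0 at day 3 against day 0 (0.466% of all features) and 0 at day 7 against day 3 (0.253%). It gave 2 by the F-test (10.1%). No filter on dim probes gave 0 at day 3 against day 0 (1.09% of all features) and 4 at day 7 against day 0 (10.1%). It gave 0 at day 7 against day 3 (0.119%) and 2 by the F-test (3.92%). The mean of kept probes gave 2 at day 7 against day 3 (0.556% of all features) and 1 at day 14 against day 7 (1.79%). At day 14 against day 7, quantile normalization gave 1 (2.55%), as did the deposited series values (3.65%). The series values gave 3 at day 14 against day 0 (3.05%). Among all features, the share called at day 14 against day 0 and against day 7 was 0.402% and 2.30%, and it moved with these settings: to 14% and 11.7% without a slide term, and to 2.82% and 11.2% when each kept probe had to exceed background everywhere. Against day 7 it was 21.8% with arrays averaged, 18.9% without the slide 1 arrays of day 0 and 18.8% after normexp. Slide 1 alone gave 4 at day 7 against day 0. It gave 0 at day 3 against day 0, at day 7 against day 3 and by the F-test (0% of all features in each). Slide 2 alone gave 0 by the F-test (0.00452%). At day 7 against day 0 the share was 32.6% with arrays averaged, 10.1% with no filter and 9.46% on slide 1 alone, against 23.8%. The cause of these shifts was not tested.

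Leaving out each RNA sample gave 0 to 1 called at day 3 against day 0 (0.0452% to 7.73% of all features). Against day 0 there were 0 to 10 at day 7 (0.466% to 26.2%) and 0 at day 14 (0.0136% to 0.99%). Day 7 against day 3 gave 0 to 1 (0.127% to 1.22%). Day 14 gave 0 to 2 against day 7 (0.0181% to 5.46%) and 0 against day 3 (0.0271% to 1.18%). The F-test gave 0 to 9 (0.353% to 21.3%). Without day 0 RNA sample 1 or 2 the block correlation could not be estimated and that of the full fit was used. The replicate block gave 9 at day 7 against day 0 (22.7% of all features). It gave 0 at day 7 against day 3 (0.199%) and 3 at day 14 against day 7 (5.17%). Without the slide 1 arrays of day 0, Irf9 and Parp9 at day 7 against day 0 changed sign, to -0.4154 and -0.0066. So did Parp9 at day 14 compared with day 3, to 0.297 (limma adjusted p = 0.0468). The days compared there lie on different slides with no slide term, so day and slide cannot be told apart. Scaling by the array median moved the median of all features at day 14 against day 7 to -0.27, against -0.04; relative to it, members lay 0.42 higher either way. Dim probes near background, 9 of 36 members, limit what can be read at day 14, when arrays were dimmest.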
